A study of Mus musculus with 1087 samples.

Results

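Cluster 10 was a group of 52 single cells out of 1087 taken from mouse embryos. The cells came from the aorta-gonad-mesonephros (AGM), the tissue around the dorsal aorta in which blood stem cells first bud off from the vessel lining, with the trunk part of the vitelline and umbilical arteries. The labels call the source intra-aortic hematopoietic cluster (IAHC) cells. Members were taken from the labels: class HC2 and cluster 10 of the authors' clustering that left out the CD27+ cells. The working name of the cluster is mast and basophil-like progenitors. The set used for contrast, cluster 7 of class HC1, held 27 cells at E10 G2VInt, 46 at E11 G2VInt, 63 at E11.5 G2VInt and 71 at E11.5 G2VLo, the days and gates explained next.

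All embryos were Gata2V/+, with a Venus fluorescent reporter on 1 Gata2 allele in every group, from wild-type C57BL/6HsdJOla females mated with Gata2V/V males. AGM tissue was digested with collagenase, stained for CD31, cKit and CD27, and sorted as live single cells. Each sample name calls its cell high for Kit and gives its day and gate: E10 G2VInt, E11 G2VInt, E11.5 G2VInt (intermediate Venus), E11.5 G2VLo (low Venus) or E11.5 CD27+. Cluster 10 had 2 cells (2.30%, 95% interval 0.280 to 8.06%) of the E10 G2VInt sort, 20 cells (15.4%, 95% interval 9.66 to 22.8%) of E11 G2VInt, 23 cells (8.24%, 95% interval 5.30 to 12.1%) of E11.5 G2VInt and 7 cells (1.48%, 95% interval 0.598 to 3.03%) of E11.5 G2VLo (exact Clopper-Pearson intervals). These are shares of sorted cells, not of the embryo.

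Mast cells and basophils are granule-filled immune cells that store histamine, proteases and, in mast cells, heparin in granules. They release them when antigen crosslinks IgE on the high-affinity receptor FcεRI. Both lineages depend on the transcription factor GATA2, and progenitors that can give rise to mast cells, basophils and red cells or megakaryocytes share GATA1 and GATA2. In the mouse embryo mast cells arise first from progenitors of the yolk sac and later from definitive hematopoiesis.

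The promoters of 3 of the 6 marker genes given with the cluster (Cpa3, Hdc, Slc45a3, Kel, Cd3g and Padi2) are shown because they hold the GATA motif nearest to the start site among the 6, and Gata1 was one of the genes that set cluster 10 apart. Each window runs from 250 bases before to 50 bases after the RefSeq start site on GRCm38.p6, 5′ to 3′ on the gene's strand. The capitals mark the GATA motif searched on both strands, GATA with A or T before it and A or G after it. Cpa3 lies at chr3:20242132-20242431, minus strand, Kel at chr6:41704276-41704575, minus strand and Cd3g at chr9:44980382-44980681, minus strand.
Cpa3: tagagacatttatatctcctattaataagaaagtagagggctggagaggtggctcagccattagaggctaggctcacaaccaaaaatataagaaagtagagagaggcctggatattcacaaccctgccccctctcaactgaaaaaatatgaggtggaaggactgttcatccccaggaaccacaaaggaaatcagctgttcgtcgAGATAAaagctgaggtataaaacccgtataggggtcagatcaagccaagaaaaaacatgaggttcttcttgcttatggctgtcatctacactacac
Kel: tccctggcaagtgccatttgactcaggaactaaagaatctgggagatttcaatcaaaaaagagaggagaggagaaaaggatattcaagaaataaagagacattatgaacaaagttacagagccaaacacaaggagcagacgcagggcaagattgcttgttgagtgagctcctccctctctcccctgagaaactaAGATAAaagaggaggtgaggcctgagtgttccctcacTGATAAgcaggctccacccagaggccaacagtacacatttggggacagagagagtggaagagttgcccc
Cd3g: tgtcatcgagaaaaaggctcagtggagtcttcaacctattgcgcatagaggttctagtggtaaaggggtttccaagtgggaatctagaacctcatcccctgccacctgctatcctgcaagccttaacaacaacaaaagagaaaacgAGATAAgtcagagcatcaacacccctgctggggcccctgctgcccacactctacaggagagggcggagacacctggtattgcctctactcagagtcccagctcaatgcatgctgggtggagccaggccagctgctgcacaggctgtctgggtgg

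The first motif base lay 46 bases before the start site in Cpa3, 56 and 19 bases before it in Kel and over 100 bases before it in Cd3g. Hdc and the downstream of the 2 Slc45a3 windows held 1 match each, over 200 bases before the start site. The upstream Slc45a3 window and the Padi2 window held none of these letters. Of all 32851 windows of this length, 29.8% held at least 1 match, and 7.77% held 2 or more, as Kel did. A match is a description of the sequence and not a bound site.

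Cells of cluster 10 had 301490 to 3562854 reads and those of cluster 7 had 117369 to 4517770. Median depth in cluster 10 was 1470712 reads at E11 G2VInt, 1161416 at E11.5 G2VInt and 584306 at E11.5 G2VLo, against 2425999.5, 1643763 and 418321 in cluster 7. Nothing in the labels ties a cell to an embryo, a litter or a sorting run. Each day and gate therefore counts as 1 sample, its cells are not replicates, and no test could be made. Library numbers do not overlap between days and gates, so day, gate and library block cannot be told apart. Levels are reads summed over a set of cells, scaled to the set's total as CPM, reads per 1000000. Fewer transcripts per cell and fewer cells with a transcript cannot be told apart in such a sum, so per-cell values stand beside it. Intervals are exact 95% Poisson or binomial intervals and cover counting error only. A cell counts as having a read, and a gene as read in it, after thinning to 100000 reads. Without a known strand setting, reads of overlapping genes cannot be told apart, which touches Cd27 (with Vamp1), Ptger4 (Ttc33), Tbxas1 (Hipk2), Gp1bb (Sept5) and Plek (Cnrip1) below. It also touches Cpox (Gpr15), Igsf6 (Mettl9), Rag2 (B230118H07Rik) and Il2rg (Gm20489), among others. Since the authors' clusters were made from these cells, what sets cluster 10 apart is a description.

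The mast cell genes among the markers were high in most cells of cluster 10 and near 0 in cluster 7. Hdc, the enzyme that makes histamine from histidine (ENSMUSG00000027360, chr2:126593667-126619299, minus strand), had a lowest, median and highest value of 0, 485 and 6153 CPM in the 20 E11 cells of cluster 10, against 0, 0.404 and 37.6 CPM in the 46 of cluster 7. At E11.5 G2VInt it had 0, 239.1 and 6161 CPM in the 23 cells of cluster 10, against 0, 0 and 17.4 CPM in the 63 of cluster 7. Most cluster 10 cells stood above every cluster 7 cell, but some cells of cluster 10 had none. The summed Hdc level was 1236 CPM in cluster 10 at E11, 686-fold higher (95% interval 596 to 792) than the 1.80 CPM of cluster 7, and 519 CPM at E11.5 G2VInt, 622-fold higher (95% interval 504 to 778) than the 0.833 CPM of cluster 7. In the 7 G2VLo cells Hdc was read in 2 of 7, with 62.6 CPM in cluster 10 against 3.09 CPM in cluster 7.

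Cpa3, the mast cell carboxypeptidase stored with heparin (ENSMUSG00000001865, chr3:20215620-20242181, minus strand), had 0, 94.4 and 5290.3 CPM at E11 and 0, 129.4 and 5342 CPM at E11.5 G2VInt in cluster 10, against at most 3.10 and 7.37 CPM in any cluster 7 cell of those sets. Its sum at E11 rested on 1 cell for 57.6% of its reads. Slc45a3, a sugar transporter of the solute carrier family (ENSMUSG00000026435, chr1:131962967-131982969, plus strand), had 0, 238.9 and 3372 CPM and 0, 226.4 and 1669 CPM in the same sets of cluster 10, against medians of 0 in cluster 7. At E11.5 G2VInt, 92.1% of the Slc45a3 reads of cluster 7 came from 1 of its 63 cells. In E11.5 G2VLo cells, Cpa3 was read in 4 of 7 and Slc45a3 in 5 of 7 of cluster 10, against 1 of 71 and 0 of 71 of cluster 7. The summed levels there were 75.3 and 85.3 CPM in cluster 10, against 0.0955 and 0.0318 CPM in cluster 7, where Cpa3 had 3 reads and Slc45a3 had 1.

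The other 3 markers are known from other cells. Kel, the Kell blood group endopeptidase of red cells (ENSMUSG00000029866, chr6:41686330-41704339, minus strand), had 0, 143.97 and 1878 CPM at E11 and 0, 183.3 and 1041 CPM at E11.5 G2VInt in cluster 10, against at most 1.88 and 1.55 CPM in cluster 7. Cd3g, a subunit of the T cell receptor complex (ENSMUSG00000002033, chr9:44969572-44980431, minus strand), was read in 9 of 20, 11 of 23 and 3 of 7 cells of cluster 10 at E11 G2VInt, E11.5 G2VInt and E11.5 G2VLo, and in none of the 46, 63 and 71 cells of cluster 7. Its summed level was 68.8, 45.9 and 77.7 CPM in cluster 10. Cd3e, the partner subunit, had no read in any of the 52 cells. Padi2, which converts arginine to citrulline in proteins (ENSMUSG00000028927, chr4:140906344-140952586, plus strand), was the patchiest, with a read in 6 of 20, 8 of 23 and 2 of 7 cells of cluster 10 and 66.6% of its E11 reads in 1 cell. Over all 52 cells, 38 of 52 had a read of Cpa3, 38 of 52 of Slc45a3, 35 of 52 of Hdc, 31 of 52 of Kel, 23 of 52 of Cd3g and 16 of 52 of Padi2.

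**Figure D1:**
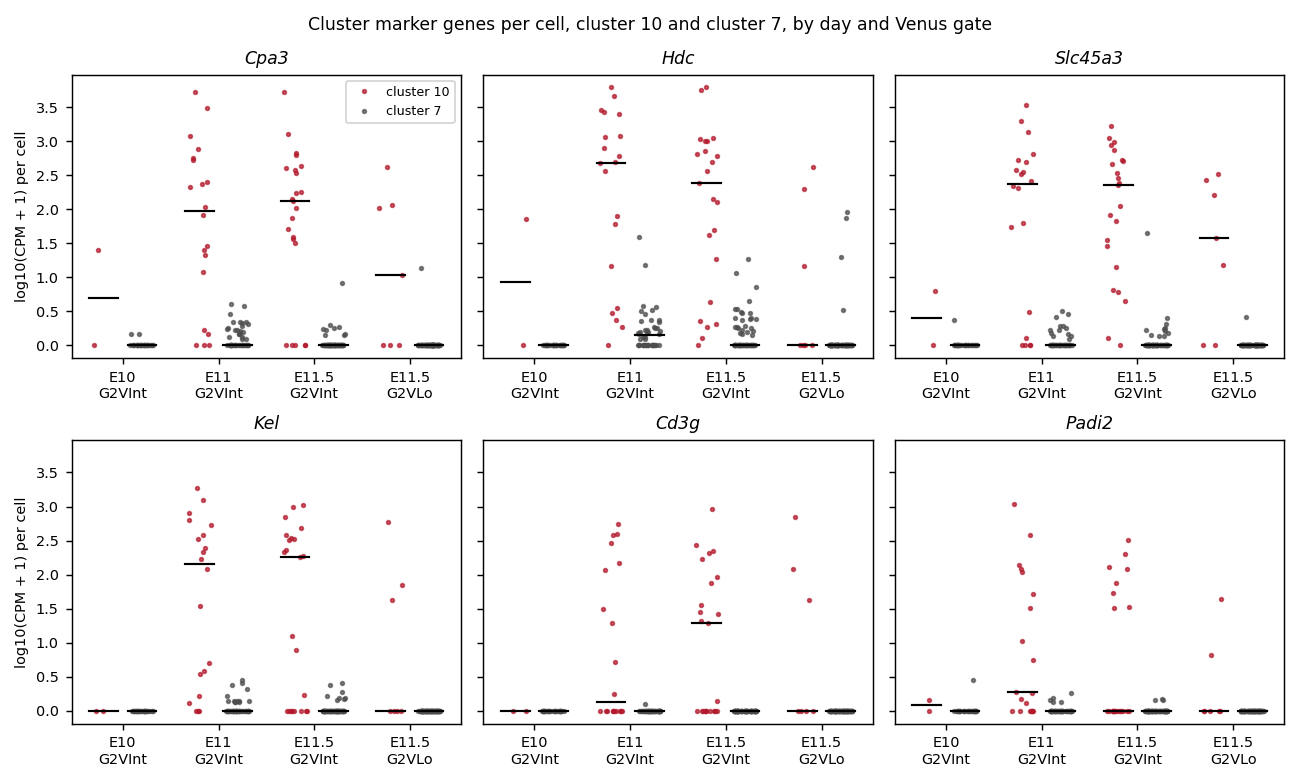
Each point is 1 cell, with cluster 10 left of cluster 7 in each day and gate; the y axis is log10(CPM + 1) and lines are medians. Cells of cluster 10 reach 6161 CPM of Hdc at E11.5 G2VInt, where no cell of cluster 7 passes 17.4 CPM, and each marker also has cluster 10 cells at or near 0.

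The name of the cluster was checked against mast cell and basophil genes. Of 13 granule protease genes, 9 had no read in any of the 52 cells: Mcpt1, Mcpt2, Mcpt4, Mcpt8 (the basophil protease), Tpsb2, Tpsab1, Tpsg1, Prss34 and Ctsg. Cma1, the chymase, was read in 1 of 20 cells at E11 and 1 of 23 at E11.5 G2VInt, and none at G2VLo. Gzmb, granzyme B, was read in 4 of 23 cells at E11.5 G2VInt, where 1 cell with 2748 CPM gave 97.1% of the reads. The other 2, Cpa3 and Srgn (serglycin, the proteoglycan core that binds granule proteases), were at least 2-fold higher in cluster 10 in all 3 sets, as 3.33% of 9579 genes measured in all 3 were. A gene counts as measured at 10 CPM or more in 1 of the 2 clusters. A gene under 10 CPM in the other cluster passed only through the cluster where it was higher, so counts and medians over measured genes describe a list and support nothing. Srgn had 1088, 697 and 532 CPM in cluster 10, against 119.5, 138.6 and 163.996 CPM in cluster 7 at E11 G2VInt, E11.5 G2VInt and E11.5 G2VLo. Hdc and Cpa3 are among the markers given with the cluster and its name, so their levels are no check of the name. Il1rl1 was read in 24 of the 52 cells, while most granule proteases and the IgE-binding receptor chain had no read. The cells are called cluster 10 here.

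Of 14 genes for histamine and heparin synthesis and secretion, 14, 13 and 13 were measured at E11 G2VInt, E11.5 G2VInt and E11.5 G2VLo, and 5 were at least 2-fold higher in cluster 10 in each set, against 10.3%, 8.76% and 10.8% of all measured genes. At least 2-fold lower were 1, 1 and 3, against 21%, 18.3% and 22.5% of all measured genes. Hdc, Slc45a3 and Srgn were higher by 2-fold or more in all 3 sets. Cd63, a granule membrane tetraspanin, had 314.4, 247.3 and 158.3 CPM in cluster 10, against 106.2, 111.02 and 107.7 CPM in cluster 7. Rab27a, a GTPase of granule release, was at least 2-fold lower in all 3, as 8.9% of genes were, with 17.8, 24.6 and 11.6 CPM in cluster 10, against 107.4, 68.7 and 76.7 CPM in cluster 7. Slc18a2, the transporter that loads histamine into vesicles, had 231.5, 137.4 and 120.6 CPM in cluster 10, against 295.4, 259.5 and 222.3 CPM in cluster 7, under 2-fold lower in each.

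The receptor for IgE was incomplete. Fcer1a, its IgE-binding chain, had no read in any of the 52 cells, and Ms4a2, its beta chain, was read in 4 of 52, with 2 of 20 at E11, 0 of 23 at E11.5 G2VInt and 2 of 7 at E11.5 G2VLo. Fcer1g, the gamma chain that other Fc receptors share, had 391.5, 250.8 and 170.3 CPM in cluster 10, against 8.18, 11.0 and 7.96 CPM in cluster 7. Among its signalling partners Btk had 169.9, 186.8 and 209.8 CPM in cluster 10, against 32.7, 34.8 and 30.9 CPM in cluster 7, and the adaptor Lat had 41.1, 70.6 and 52.2 CPM in cluster 10, against 11.4, 6.26 and 11.1 CPM in cluster 7. Plcg2, a phospholipase of immune receptor signalling, was lower, with 131.7, 130.7 and 180.3 CPM in cluster 10, against 729.8, 623 and 628 CPM in cluster 7. Of 16 listed genes, 5 of 14 measured were at least 2-fold higher at E11 G2VInt, 4 of 12 at E11.5 G2VInt and 4 of 13 at E11.5 G2VLo, while 1, 1 and 2 were at least 2-fold lower. Over all measured genes 10.3%, 8.76% and 10.8% were higher and 21%, 18.3% and 22.5% lower by that much. The median log2 ratio of the measured genes of the list was 0.48, -0.09 and 0.51, against -0.13, -0.10 and -0.11 over all measured genes, so at E11.5 G2VInt the list stood close to the median of all genes.

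Of 12 genes for surface proteins and cytokines of mast cells and basophils, 5, 4 and 3 were measured at E11 G2VInt, E11.5 G2VInt and E11.5 G2VLo. Il1rl1, Itgb7 and Siglecf were at least 2-fold higher in cluster 10 in all 3 sets, as 3.33% of genes measured in all 3 were. Genes with no read in cluster 10 were Cd200r3, Mrgprb2 and Cd33 at E11, Mrgprb1, Mrgprb2 and Il18r1 at E11.5 G2VInt and Cd200r3, Mrgprb1, Mrgprb2, Il18r1 and Il13 at G2VLo. Il1rl1, the receptor for interleukin 33, had 71.98, 34.3 and 48.99 CPM in cluster 10, with a read in 9 of 20, 11 of 23 and 3 of 7 cells, against 4, 2 and 0 reads in all cells of cluster 7. Itgb7, the integrin beta chain that guides mast cell progenitors to mucosa, had 363.4, 143.04 and 44.1 CPM in cluster 10, against 7.20, 14.7 and 3.12 CPM in cluster 7. Siglecf, an inhibitory lectin of eosinophils and mast cells, had 84.1, 106.2 and 80.2 CPM in cluster 10, against 5.75, 0.0581 and 1.02 CPM in cluster 7. Of the cytokines, Il6 was read in 4 of 20 and 3 of 23 cells at E11 and E11.5 G2VInt, with 94.5% of the E11 reads in 1 cell, and Il13 in 2 of 20 and 1 of 23. Mrgprb2 is the receptor of connective tissue mast cells for basic peptides. Of 10 lipid mediator genes, 6 were measured in each set. At least 2-fold higher were 2 in each, against 10.3%, 8.76% and 10.8% of all measured genes. At least 2-fold lower were 3, 4 and 3, against 21%, 18.3% and 22.5%. The list medians were -0.69, -1.16 and -1.19 on the log2 scale, against -0.13, -0.10 and -0.11 over all measured genes. Alox5, the first enzyme of leukotriene production, had 157.3, 191.3 and 155.998 CPM in cluster 10, against 59.5, 51.7 and 75.2 CPM in cluster 7. Among the cluster 10 cells above the median library number, its G2VLo log2 ratio was -0.35, with 3 of 7 cells left. Ptger3, a prostaglandin E2 receptor, had 55.3, 74.1 and 82.97 CPM in cluster 10, against 15.1, 19.5 and 12.98 CPM in cluster 7. Tbxas1 (thromboxane synthase) and Ptger4 were lower in all 3 sets, and Hpgds, which makes prostaglandin D2 in mast cells, stayed at or under 3.42 CPM in each set of cluster 10. Alox5ap was at least 2-fold lower in both E11.5 sets, and Ptgs1 at E11 and E11.5 G2VInt.

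The sorted proteins and the reporter gene were checked next. Kit, the stem cell factor receptor on which mast cells depend, had 689.8, 535 and 379.2 CPM in cluster 10, against 788, 689.8 and 573 CPM in cluster 7, so no set differed by 2-fold. Gata2 had 636, 703 and 254.9 CPM in cluster 10, against 289.4, 289.6 and 165.6 CPM in cluster 7 and was 2.20-, 2.43- and 1.54-fold higher in cluster 10. Pecam1 (CD31) was lower, with 133.9, 138.4 and 61.9 CPM in cluster 10, against 621, 541 and 489 CPM in cluster 7, and Cd27 had 2.04, 0.937 and 0.231 CPM in cluster 10, against 66.3, 76.2 and 41.7 CPM in cluster 7. Cells of the 2 clusters came from the same gates, so transcript levels of Pecam1 and Cd27 differed inside a gate. Kit did not pass 2-fold in any gate, and Gata2 passed it in the G2VInt sets alone.

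The beta chains of the interleukin 3 and GM-CSF receptors were higher in cluster 10, and their alpha chains were not higher throughout. Csf2rb, the shared beta chain, had 202.2, 263.1 and 65.2 CPM in cluster 10, against 5.81, 11.6 and 13.3 CPM in cluster 7. Csf2rb2 (the mouse interleukin 3 beta chain, a close paralog whose reads the counting may have split or dropped) had 56.5, 19.7 and 66.6 CPM in cluster 10, against 7.71, 2.28 and 2.61 CPM in cluster 7. Among the cluster 10 cells above the median library number their G2VLo log2 ratios were -0.14 and -0.38, with 3 of 7 cells left. Csf2ra, the GM-CSF alpha chain, had 16.4, 26.5 and 9.24 CPM in cluster 10, against 27.5, 30.4 and 15.4 CPM in cluster 7, under 2-fold lower in each. Il3ra, the interleukin 3 alpha chain, had 31.8, 33.8 and 24.5 CPM in cluster 10, against 18.4, 19.002 and 11.0 CPM in cluster 7, which passed 2-fold at E11.5 G2VLo alone. Il2rg, the common gamma chain, had 246.5, 136.6 and 57.8 CPM in cluster 10, against 13.2, 15.5 and 11.9 CPM in cluster 7, and Epor, the erythropoietin receptor, had 43.1, 53.4 and 62.4 CPM in cluster 10, against 13.99, 13.3 and 15.1 CPM in cluster 7. Among the cells that both clusterings placed alike, the E11 log2 ratio of Epor was -0.14. Il4ra and Il6ra were at least 2-fold lower in all 3 sets. Of 17 receptors, 6 of 14, 5 of 15 and 6 of 14 measured were at least 2-fold higher at E11 G2VInt, E11.5 G2VInt and E11.5 G2VLo, and 3, 5 and 4 at least 2-fold lower. Over all measured genes 10.3%, 8.76% and 10.8% were higher and 21%, 18.3% and 22.5% lower by that much. The median log2 ratios of the measured receptors were 0.83, -0.20 and 0.24, against -0.13, -0.10 and -0.11 over all measured genes.

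Among 24 lineage transcription factors, Gata1, Klf1, Gfi1b, Ikzf1 and Lmo4 were at least 2-fold higher in cluster 10 in all 3 sets, and Gata3, Spi1 and Gfi1 were at least 2-fold lower. Of all genes measured in all 3 sets, 3.33% were at least 2-fold higher and 8.9% at least 2-fold lower in all 3. Gata1, the factor shared by mast cells, red cells, megakaryocytes and eosinophils (ENSMUSG00000031162, chrX:7959260-7978071, minus strand), had 0, 229.3 and 759 CPM at E11 and 0, 368.8 and 793 CPM at E11.5 G2VInt in cluster 10, against medians of 0 and highest values of 19.2 and 19.5 CPM in cluster 7. It was read in 15 of 20, 22 of 23 and 6 of 7 cells of cluster 10. Nearly every cluster 10 cell at E11.5 G2VInt carried it, while 5 of the 20 E11 cells had no read. Lmo4, a LIM-only cofactor, had 1089, 897 and 276.9 CPM in cluster 10, against 29.5, 20.5 and 22.8 CPM in cluster 7. Klf1, the red cell Krüppel-like factor, had 173.7, 174.5 and 43.2 CPM in cluster 10, against 0.109, 1.68 and 0.127 CPM in cluster 7, and Ikzf1 (Ikaros) had 445.8, 436.1 and 272.5 CPM in cluster 10, against 107.4, 106.04 and 71.2 CPM in cluster 7.

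Spi1 (PU.1), which drives macrophage and lymphoid fates, had 152.2, 162.9 and 84.8 CPM in cluster 10, against 404.1, 496 and 382.1 CPM in cluster 7, and Gfi1, a repressor active in emerging blood stem cells, had 1.85, 6.02 and 0 CPM in cluster 10, against 98.6, 84.99 and 55.7 CPM in cluster 7. Factors of mature mast cells and basophils were low. Mitf, needed for mast cell maturation, was read in 3 of 20, 2 of 23 and 0 of 7 cells of cluster 10 and had 6.42, 1.57 and 0 CPM in cluster 10, against 5.57, 8.14 and 5.06 CPM in cluster 7. Cebpa, which with GATA2 specifies basophils, was read in 0 of 20, 1 of 23 and 2 of 7 cells.

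Part of the red cell program was higher in cluster 10. Of 21 listed and counted genes, 8 of 10, 9 of 12 and 8 of 10 measured were at least 2-fold higher in cluster 10 at E11 G2VInt, E11.5 G2VInt and E11.5 G2VLo. Over all measured genes 10.3%, 8.76% and 10.8% were. Aqp1, of the same list, was at least 2-fold lower in each set, as 21%, 18.3% and 22.5% of all measured genes were. Of the measured red cell genes, 6, 8 and 6 were measured through cluster 10 alone, so their direction was set by the filter, and the rest of the 21 did not reach 10 CPM in either cluster. Car1 (carbonic anhydrase 1) had 186.04, 256.7 and 140.7 CPM in cluster 10, against 0.109, 0.203 and 0 CPM in cluster 7. Icam4, an adhesion protein of erythroblasts, had 35.6, 37.1 and 28.4 CPM in cluster 10, against 1.14, 0.203 and 0.382 CPM in cluster 7. The late red cell genes Slc4a1 (band 3), Trim10 and Cldn13 had no read in any of the 52 cells. Summed over 7 globin genes, cells of cluster 10 had 0 to 404.4 CPM at E11 and 0 to 228.5 CPM at E11.5 G2VInt, against 0 to 4979 CPM and 0 to 5528 CPM in cluster 7. Of 11 measured heme synthesis genes, 2 were at least 2-fold higher in each set, Cpox in all 3, against 10.3%, 8.76% and 10.8% of all measured genes. At least 2-fold lower were 1, 0 and 2, among them Alas1 and Slc25a37 at E11.5 G2VLo, against 21%, 18.3% and 22.5% of all measured genes. The G2VLo log2 ratio of Cpox was -1.27 among the cluster 10 cells above the median library number.

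Other blood lineages appeared gene by gene. Over all genes measured in all 3 sets, 3.33% were at least 2-fold higher in cluster 10 in all 3 and 8.9% at least 2-fold lower. Of 18 megakaryocyte genes, Itga2b, Gp1bb, Gp5, Plek and Treml1 were at least 2-fold higher in cluster 10 in all 3 sets, and Itgb3, Vwf and Selp at least 2-fold lower. Treml1, a platelet granule receptor, was read in 9 of 20, 12 of 23 and 5 of 7 cells of cluster 10, against 1 of 46, 1 of 63 and 0 of 71 of cluster 7. Of 18 early myeloid genes, Mpo, Fcgr3, Plac8 and Nkg7 were at least 2-fold higher in all 3 sets, and Lyz2 and Igsf6 at least 2-fold lower. Mpo (myeloperoxidase) had 517, 782 and 795 CPM in cluster 10, against 127.4, 123.6 and 75.8 CPM in cluster 7, and Fcgr3, a low-affinity IgG receptor, had 589, 305.3 and 140.3 CPM in cluster 10, against 14.2, 17.4 and 5.16 CPM in cluster 7. Lyz2 (lysozyme) had 47.2, 25.004 and 31.2 CPM in cluster 10, against 519, 382.3 and 448.4 CPM in cluster 7. The neutrophil granule genes S100a8, S100a9, Ltf and Ngp had no read in cluster 10. Of 22 lymphoid genes, Cd3g was at least 2-fold higher in all 3 sets. By set, 5 of 7, 3 of 8 and 1 of 6 measured were at least 2-fold higher, against 10.3%, 8.76% and 10.8% of all measured genes. At least 2-fold lower were 1, 3 and 2, against 21%, 18.3% and 22.5%. These were Lck at E11 G2VInt, Flt3, Lck and Ltb at E11.5 G2VInt, and Flt3 and Cd79b at E11.5 G2VLo. The list medians were 2.25, -0.01 and -0.39 on the log2 scale. Rag2, a subunit of the recombinase, was read in 3 of 20, 6 of 23 and 1 of 7 cells of cluster 10 and in none of the 180 cells of cluster 7 in those sets. Of 18 macrophage genes none was at least 2-fold higher in all 3 sets, and their summed level was 63.7, 70.8 and 21.3 CPM in cluster 10, against 36.3, 42.9 and 77.6 CPM in cluster 7. Cells of cluster 10 had 0 to 658 CPM of them at E11 and 0 to 1092 CPM at E11.5 G2VInt, against 0 to 306.6 CPM and 0 to 288.05 CPM in cluster 7. Cd14, C3ar1 and Ms4a7 were at 0 in cluster 10 at E11. Of 10 eosinophil genes, Siglecf, described above, was at least 2-fold higher in all 3 sets, and Prg2, Ear1, Ear6 and Alox15 had no read. Prg3 had 6.09, 0.333 and 28.2 CPM in cluster 10, and its G2VLo reads were all in 1 cell.

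Across all genes, 853 were at least 2-fold lower in cluster 10 in all 3 sets, more than were higher. Genes read in at least 50% of cells, and holding without their top cell, were ranked by the smallest of the 3 ratios. Of the 15 highest, Arhgap15, a GTPase-activating protein for Rac, led: it was read in 17 of 20, 22 of 23 and 7 of 7 cells of cluster 10 and had 289.4, 150.2 and 75.1 CPM in cluster 10, against 0.172, 0.116 and 0.0318 CPM in cluster 7. Cst7, a protease inhibitor of leukocyte granules, was read in 16 of 20, 19 of 23 and 4 of 7 cells of cluster 10 and in no thinned cell of cluster 7. The other 13, in order, were Cpa3, Tespa1, Pdzph1, Gata1, Slc45a3, Plac8, Emilin2, Ubash3a, Rab44, Cd48, Itgal, Mt1 and Perp. Several belong to leukocytes: Tespa1 and Ubash3a act in T cell and mast cell receptor signalling, Cd48 and Itgal are adhesion receptors, and Rab44 is a large Rab GTPase of mast cell granules. Rab44 had 261.7, 174.5 and 121.1 CPM in cluster 10, against 0.145, 2.57 and 0.0637 CPM in cluster 7, and the metallothionein gene Mt1 had 191.4, 247.6 and 138.9 CPM in cluster 10, against 3.02, 4.35 and 2.93 CPM in cluster 7.

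The 15 lowest, in order, were Vwf, Mogat2, Pdlim4, Gja5, Mecom, Sox7, Dll4, Procr, Aqp1, Tmem26, Ocln, Rgs3, Fam181b, Cpxm1 and Pdzk1ip1. Vwf (von Willebrand factor) had a highest value of 4.07, 18.1 and 3.42 CPM in any cluster 10 cell at E11 G2VInt, E11.5 G2VInt and E11.5 G2VLo, against medians of 576, 511 and 393.2 CPM in cluster 7. Gja5 (connexin 40; its locus overlaps Gpr89), the Notch ligand Dll4 and Sox7 belong to arterial endothelium. Mecom and Procr are genes of hematopoietic stem cells. Mecom had 1.93, 0.816 and 0.231 CPM in cluster 10, against 327.8, 231.1 and 187.005 CPM in cluster 7, and Procr, the endothelial protein C receptor, had 4.41, 1.54 and 2.54 CPM in cluster 10, against 457.4, 531 and 454.3 CPM in cluster 7.

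**Figure D2:**
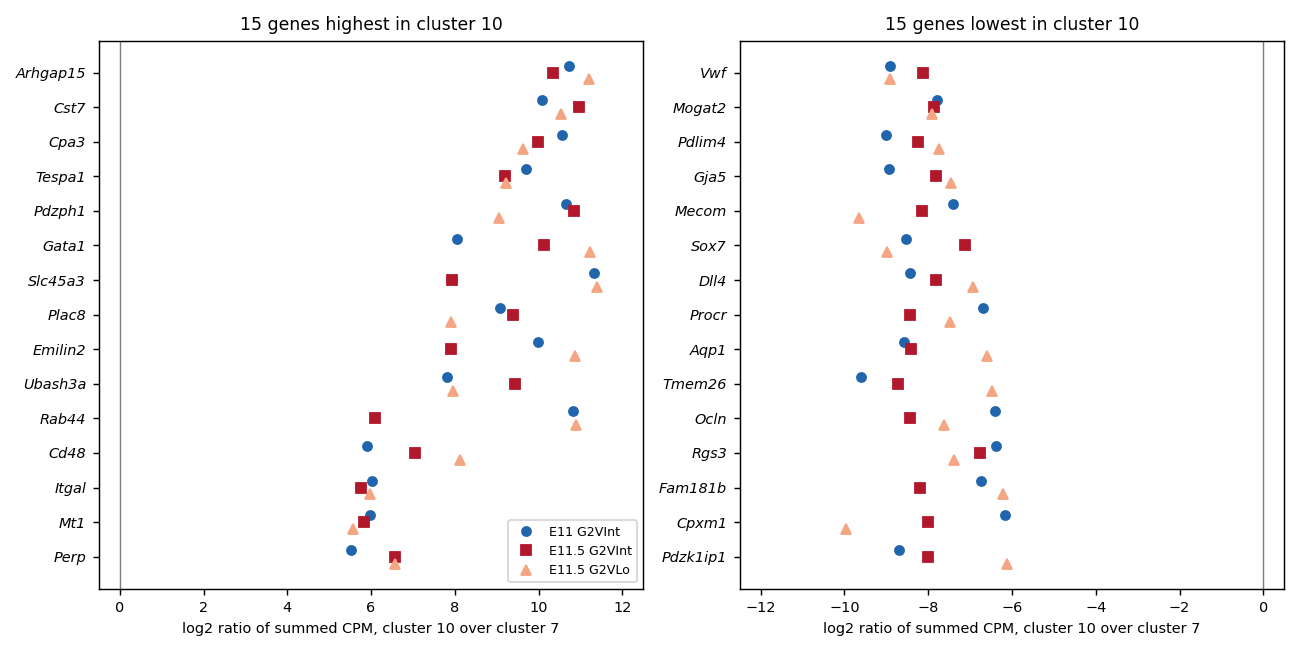
Log2 ratios of summed CPM, cluster 10 over cluster 7, for the 15 highest (left) and 15 lowest (right) genes; blue circles are E11 G2VInt, red squares E11.5 G2VInt and orange triangles E11.5 G2VLo, and a cluster with no read of a gene was given 3 reads. Gata1 spans 8.04 to 11.23 and Vwf -8.92 to -8.12.

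Most stem cell and endothelial genes were lower in cluster 10. Over all genes measured in all 3 sets, 8.9% were at least 2-fold lower in all 3 and 3.33% at least 2-fold higher. Of 20 stem cell genes, 16 were at least 2-fold lower in cluster 10 in all 3 sets and none was higher, with median log2 ratios of -5.02, -3.73 and -3.10, against -0.13, -0.10 and -0.11 over all measured genes. Of the 19 measured, 10, 9 and 10 were measured through cluster 7 alone. Hlf had 1.85, 0.302 and 1.39 CPM in cluster 10, against 78.3, 76.4 and 54.01 CPM in cluster 7, and Cd34 had 315.2, 279.1 and 143.98 CPM in cluster 10, against 1325, 1218 and 1238 CPM in cluster 7. Of 26 endothelial genes, 21 were at least 2-fold lower in all 3 sets, with medians of -5.65, -6.10 and -2.31, and 16, 17 and 2 were measured through cluster 7 alone. At E11.5 G2VLo, Flt4 and Aplnr, receptors of endothelial cells, were at least 2-fold higher, with 13.2 and 74.6 CPM in cluster 10, against 3.88 and 3.28 CPM in cluster 7, and 1 cell gave 96.5% and 97.8% of the reads of cluster 10. Without each gene's top cell their log2 ratios were -1.72 and -0.48. Cdh5 (VE-cadherin) had 1.07, 0.968 and 22.9 CPM in cluster 10, against 183.8, 157.5 and 114.9 CPM in cluster 7, and 96.97% of its G2VLo reads in cluster 10 were in 1 cell with 164.3 CPM. Without the G2VLo cell highest in endothelial reads the G2VLo endothelial median was -5.73. Endothelial reads summed to 126.6 to 1309.9 CPM per cell in cluster 10 at E11.5 G2VInt, against 2741 to 13371 CPM in cluster 7, and no listed gene was at 0 over either set. Pan-hematopoietic genes ran the other way: 12 of 22 were higher in all 3 sets, among them Rac2, a GTPase of blood cells, with 1961, 1551 and 1025 CPM in cluster 10, against 115.4, 123.9 and 120.5 CPM in cluster 7. Ptprc (CD45) had 254.7, 162.4 and 102.6 CPM in cluster 10, against 68.8, 91.6 and 101.4 CPM in cluster 7. Of the 10 mesenchymal genes, Pdgfrb was at least 2-fold higher and Acta2 at least 2-fold lower in all 3. Pdgfra, Dcn and Lum had no read in cluster 10, and the list summed to 1.21 to 268.7 CPM per cell at E11.5 G2VInt, against 0 to 5955 CPM in cluster 7.

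Cell cycle and stress genes were set beside these values. Of 26 S phase genes none was at least 2-fold higher, and none at least 2-fold lower, in all 3 sets, and the median log2 ratios were 0.069, 0.014 and 0.23. Of 24 G2 and mitosis genes, 20 were at least 2-fold lower at E11 G2VInt and 4 at E11.5 G2VInt, while 12 were at least 2-fold higher at E11.5 G2VLo. Over all measured genes 21% and 18.3% were at least 2-fold lower in the first 2 sets, and 10.8% at least 2-fold higher at E11.5 G2VLo. Summed over the list, cells of cluster 10 had a median of 2835, 1092 and 2836 CPM, against 6654, 4122 and 1527 CPM in cluster 7. Immediate early genes, which respond to tissue dissociation among other stimuli, had medians of 1.27, 1.2004 and 0.72, and Fos had 274.6, 169.7 and 568 CPM in cluster 10, against 29.5, 49.4 and 168.01 CPM in cluster 7. Among the cluster 10 cells above the median library number the log2 ratio of Fos was -1.24 at E11.5 G2VInt and -1.90 at E11.5 G2VLo, so its direction turned with the cells chosen. Mitochondrial genes took a median of 3.74%, 3.65% and 8.62% of the reads of a cluster 10 cell, against 2.20%, 2.504% and 5.57% in cluster 7. The part of these in the other differences was not tested.

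**Figure D3:**
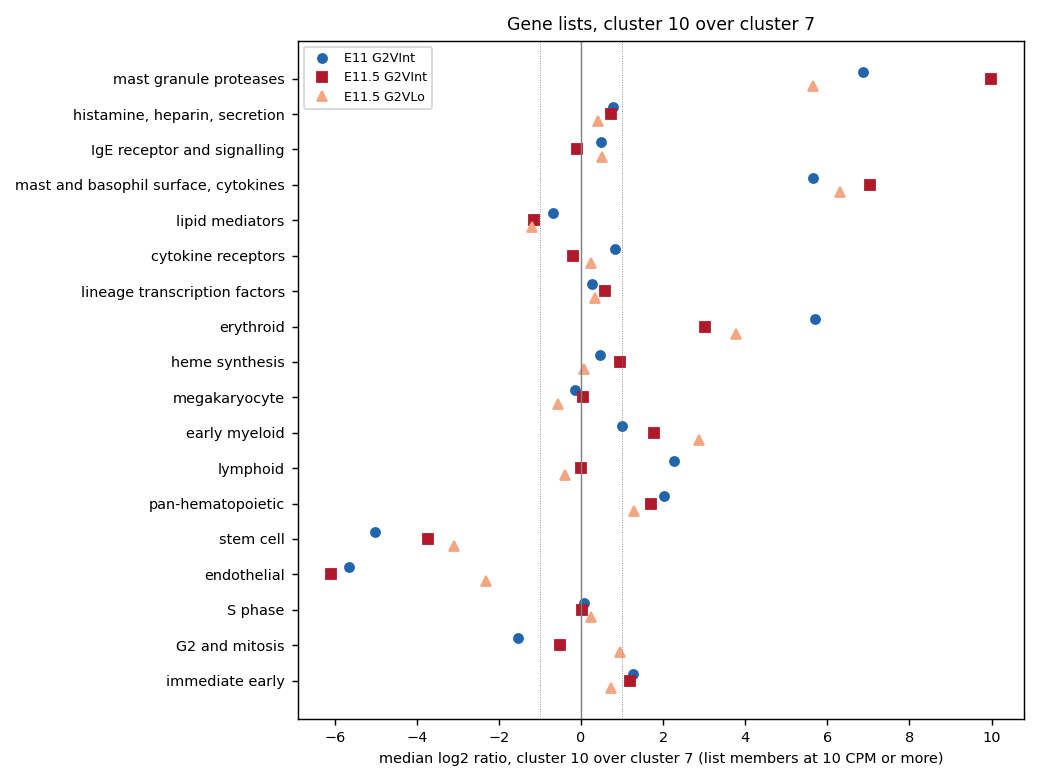
Median log2 ratio, cluster 10 over cluster 7, of the measured genes of each list; blue circles are E11 G2VInt, red squares E11.5 G2VInt, orange triangles E11.5 G2VLo, and dotted lines mark 2-fold. The endothelial medians lie at -5.65, -6.10 and -2.31 and those of the early myeloid list at 1.00, 1.78 and 2.88; the G2 and mitosis medians lie on both sides of 0.

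The 52 cells differed among themselves. Of the 6 markers, 20 cells had a read of 5 or 6, 15 of 3 or 4, and 17 of 2 or fewer. Of Cpa3, Hdc and Slc45a3, 27 cells had all 3, 11 had 2, 8 had 1 and 6 had none. Of the red cell genes Kel, Car1, Klf1 and Icam4, 14 cells had all 4 and 7 had none. By both groups, 25 cells had at least 2 of each, 13 had at least 2 mast genes with 1 or no red cell gene, 7 the reverse, and 7 had at most 1 of each. Most of the 52 cells had at least 2 mast genes, and most had at least 2 red cell genes. Many cells with both would therefore arise without any link between the groups. These gene groups were picked after the values were known and the counts are a description.

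Some genes were read in the same cells. Each of the 22 cells with a read of Car1 also had one of Kel, and each of the 32 cells with Klf1 had Gata1, against 31 of the 52 with Kel and 44 with Gata1. Of the 23 cells with Cd3g, 21 had Kel and 21 had Itgb7, which was read in 28 of the 52. Gzmb was found in 5 cells, and each of these had Hdc, Kel, Klf1 and Gata1, which were read in 35, 31, 32 and 44 of the 52. Gata1 was unread in 8 cells, and 4 of these had Cpa3, Hdc and Slc45a3 together. Cells from different depths enter these counts after thinning to the same number of reads.

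The authors' other clustering, of all cells with the CD27+ ones, split the 52 cells by label. It kept 41 in its cluster 10 and put 7 in its cluster 11 and 4 in its cluster 8. Its cluster 10 also took in cells of cluster 9, among them most of those at E11.5 G2VInt. Hdc had a lowest, median and highest value of 0, 420.6 and 6161 CPM in the 41 and 0, 1.28 and 493 CPM in the 7, while the 4 did not pass 2.56 CPM. Klf1 had 0, 55.3 and 519 CPM in the 41, 224.9, 565 and 597 CPM in the 7 and no read in the 4. The 7 cells thus had Klf1 in every cell and Hdc in 3. Il1rl1 was read in 22 of the 41, in none of the 7 and in 2 of the 4. Cd34 had medians of 150.5, 3.84 and 1052 CPM in the 41, the 7 and the 4. Mpo had medians of 147.7, 9.31 and 1068 CPM. Of the 4 cells, 3 had a read of the stem cell factor Hlf, against 2 of the 41. Rac2, in contrast, was read in all 52, with lowest values of 781, 487 and 901 CPM.

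**Figure D4:**
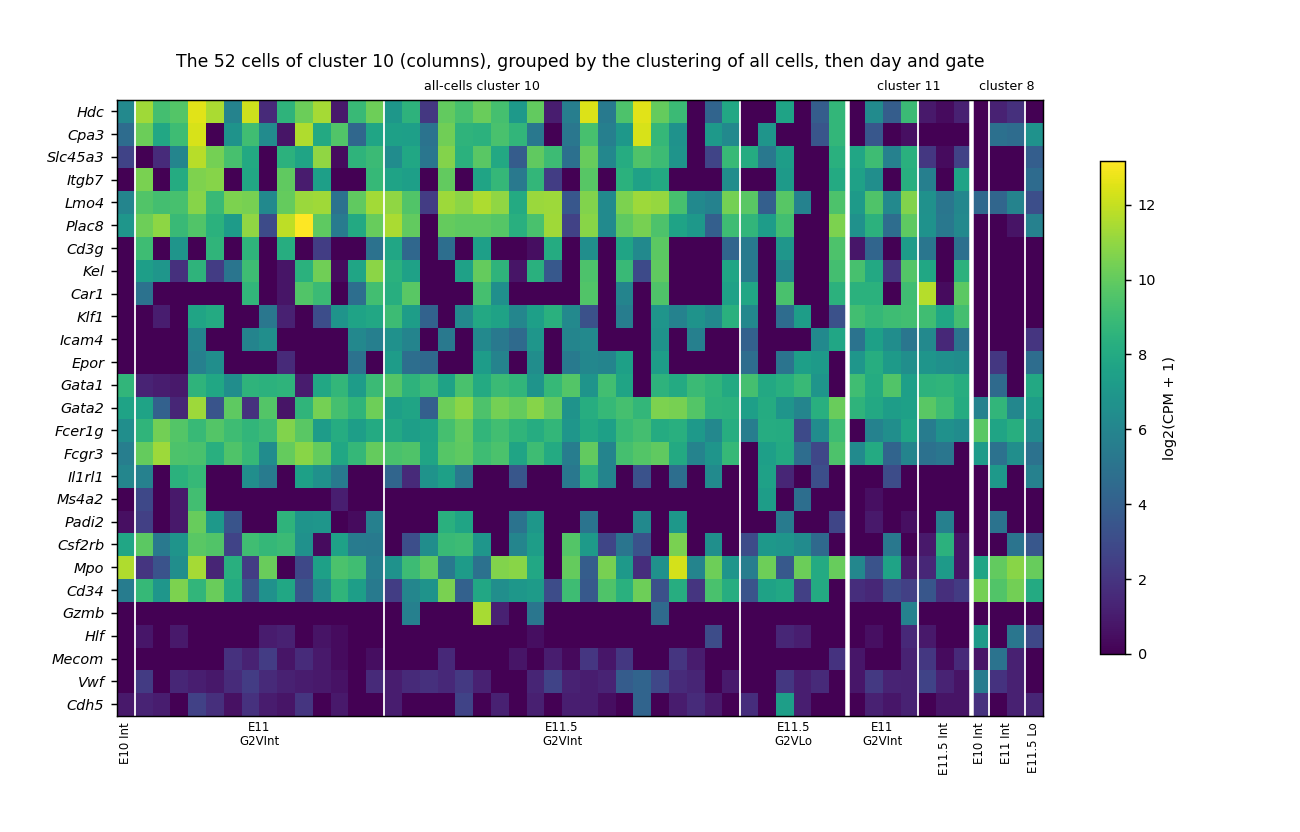
Log2(CPM + 1) of 27 genes (rows) in the 52 cells of cluster 10 (columns), ordered by the clustering of all cells, then day and gate, then library number. Klf1 and Epor are on in all 7 cells of all-cells cluster 11, Kel, Car1 and Cd3g are unread in the 4 cells of all-cells cluster 8, and Hlf, Mecom and Vwf are low in nearly all columns.

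Within cluster 10 at E11.5 the summed markers were lower in G2VLo than in G2VInt cells, apart from Cd3g. Hdc had 0, 239.1 and 6161 CPM as lowest, median and highest in G2VInt and 0, 0 and 420.6 CPM in G2VLo, and the groups overlapped. Cpa3 had 0, 129.4 and 5342 CPM in G2VInt and 0, 9.95 and 412.05 CPM in G2VLo. In sums, Kel had 175.03 CPM in the E11.5 G2VInt cells and 61.2 CPM in the E11.5 G2VLo cells, Slc45a3 had 299.96 CPM in the E11.5 G2VInt cells and 85.3 CPM in the E11.5 G2VLo cells and Cd3g had 45.9 CPM in the E11.5 G2VInt cells and 77.7 CPM in the E11.5 G2VLo cells. Among the cells above the median library number the log2 ratio of Kel was -0.31, the other direction. Gata2, which the gates follow, had 703 CPM in the E11.5 G2VInt cells and 254.9 CPM in the E11.5 G2VLo cells. Over all genes 16.8% of 9718 were at least 2-fold higher in G2VInt and 9.28% at least 2-fold lower. The G2VLo set held 7 cells, so 1 cell weighed much: without each gene's top cell in each set, 537 genes in place of 1085 were at least 2-fold higher in cluster 10 than in cluster 7 there. Cells of G2VLo had a median depth of 584306 reads against 1161416 in G2VInt.

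The 8 genes with the highest ratio of G2VInt over G2VLo were Papss2, Aacs, Ddx28, Ctxn1, Ecm1, Tpm2, Polk and Acot11. Papss2 makes the sulfate donor used to sulfate heparin. Of the G2VInt cells 14 of 23 had a read of it and of the G2VLo cells 0 of 7. It had 88.8 CPM in the E11.5 G2VInt cells and 0.693 CPM in the E11.5 G2VLo cells, where 3 reads, all in 1 cell, were counted. Its ratio was 128.1 (95% interval 43.8 to 621). At E11 it had 224.2 CPM in cluster 10, and 0.118 CPM in cluster 7. Aacs, Ctxn1, Tpm2, Polk and Acot11 had no read in the 7 G2VLo cells, where 3 reads would be 0.693 CPM, and were between 23.9 and 54.6 CPM in G2VInt. Ddx28 overlaps Dus2, and Acot11 overlaps Fam151a. The 8 lowest were Plk2, Esam, Il6st, Tjp1, Enc1, Fn1, Fancb and Lactb2. Esam, an endothelial junction protein, had 6.08 CPM in the E11.5 G2VInt cells and 138.4 CPM in the E11.5 G2VLo cells, and 67.9% of the G2VLo reads were in 1 cell. Each of the 8 had 49.4 to 67.9% of its G2VLo reads in 1 cell, and without each gene's top cell 4.66% of measured genes in place of 9.28% were at least 2-fold lower in G2VInt. Fn1 (fibronectin) had 5.11 CPM in the E11.5 G2VInt cells and 51.999 CPM in the E11.5 G2VLo cells, against 1067 and 823 CPM in cluster 7.

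Between days, E11.5 over E11 G2VInt within cluster 10, 6.31% of 9765 genes were at least 2-fold higher and 9.09% at least 2-fold lower. In sums the mast cell genes were lower at E11.5: Hdc had 519 CPM in the E11.5 G2VInt cells and 1236 CPM in the E11 G2VInt cells, Cpa3 had 227.4 CPM in the E11.5 G2VInt cells and 673 CPM in the E11 G2VInt cells and Slc45a3 had 299.96 CPM in the E11.5 G2VInt cells and 672 CPM in the E11 G2VInt cells. The log2 ratios of Hdc, Cpa3 and Slc45a3 were -1.25, -1.57 and -1.16 in sums, -0.51, -0.46 and -0.50 as means of per-cell CPM and -1.19, -0.96 and -0.91 without each gene's top cell. The median cell of Cpa3 had 129.4 CPM at E11.5 and 94.4 CPM at E11, the other direction. Padi2 had 39.3 CPM in the E11.5 G2VInt cells and 119.1 CPM in the E11 G2VInt cells, with a read in 8 of 23 and 6 of 20 cells, and its log2 ratio was -1.60, and -0.52 without its top cells. Gata1 had 409.02 CPM in the E11.5 G2VInt cells and 259.6 CPM in the E11 G2VInt cells, and Klf1 had 174.5 CPM in the E11.5 G2VInt cells and 173.7 CPM in the E11 G2VInt cells. The 8 highest were Reln, Mpzl1, Tmem18, Tmem38b, Abcd4, B4gat1, Gpn2 and Ebag9. Reln, an extracellular matrix protein of the nervous system, was read in 18 of 23 cells at E11.5 and 0 of 20 at E11, and it had 13.8 CPM at E11.5 in cluster 10 and 13.4 CPM in cluster 7. Every E11.5 G2VInt cell had at least 6.96 CPM of Reln in cluster 10 and 2.97 CPM in cluster 7, while the E11 and G2VLo sets had no read in cluster 10 and 1 read each in cluster 7. Its level thus moved with the sort in both clusters. Mpzl1 had 39.4 CPM in the E11.5 G2VInt cells and 2.37 CPM in the E11 G2VInt cells, the largest ratio after Reln (16.6-fold) under those limits. The 8 lowest were Galc, Lbh, Smpdl3a, Pi4k2a, Bbs9, Tgfbrap1, Gpr107 and Igf2r. Galc, a lysosomal enzyme that breaks down galactolipids, had 1.87 CPM in the E11.5 G2VInt cells and 23.4 CPM in the E11 G2VInt cells.

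At E10 there were 2 cells. The one that the clustering of all cells kept in cluster 10 had 3043 CPM of Mpo, 400.03 of Gata1, 71.5 of Hdc, 24.6 of Cpa3 and 5.26 of Slc45a3. The one it put in cluster 8 had 209.8 CPM of Mpo, 0 of Gata1, 1338 of Cd34 and no read of Hdc, Cpa3 or Slc45a3. Neither had a read of Kel, Cd3g, Car1 or Klf1. Cells of both sexes, called from Y-linked genes and Xist at 10 reads, were present in each set: 1 male and 1 female at E10, 15 and 2 at E11, 13 and 9 at E11.5 G2VInt, and 4 and 3 at G2VLo. 3 E11 cells and 1 E11.5 G2VInt cell were not called, and each set drew on more than 1 embryo.

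Clusters 11 and 9 shared different parts of the profile. At E11.5 G2VInt, Klf1 had 174.5 CPM in cluster 10, 454.6 in cluster 11 and 0.400 in cluster 9, and Car1 had 256.7, 230.5 and 0.0666 CPM. Kel had 175.03 CPM in cluster 10, 37.7 in cluster 11 and no read in cluster 9. It was read in 14 of 23 cells of cluster 10 and 9 of 13 of cluster 11. Over all sorts it was read in 31 of 52 and 20 of 29. Cluster 11, 13 cells in that sort, thus had the red cell genes, and its Hdc, Cpa3 and Slc45a3 were at 12.6, 4.15 and 6.04 CPM. Cluster 9, 8 cells in that sort, had Hdc at 312.1, Cpa3 at 144.2 and Slc45a3 at 154.7 CPM. Most of these 8 cells were in cluster 10 of the authors' clustering of all cells. Mpo had 782 CPM in cluster 10 and 3788 CPM in cluster 9. Cluster 9 was also above cluster 10 in that sort in Csf2rb (795.3 against 263.1 CPM) and Fcer1g (476 against 250.8 CPM). The same held for Itgb7 (179.7 against 143.04 CPM) and the marker Padi2 (47.7 against 39.3 CPM). At E11 G2VInt and E11.5 G2VLo, Csf2rb, Fcer1g, Itgb7 and Padi2 were lower in cluster 9 than in cluster 10. The Slc45a3 reads of cluster 9 were found in 1 of 8 cells, and over all sorts 2 of 43 had a read. At E11 Hdc, Cpa3 and Slc45a3 had 1236, 673 and 672 CPM in cluster 10, against 40.3, 218.7 and 0.513 CPM in cluster 9, and at E11.5 G2VLo 62.6, 75.3 and 85.3 CPM in cluster 10, against 17.2, 90.6 and 0 CPM in cluster 9. Gata1 had 409.02, 357.5 and 45.0 CPM in clusters 10, 11 and 9. At least 3 of the 6 markers were read in 35 of the 52 cells of cluster 10, 3 of 43 of cluster 9, 1 of 29 of cluster 11, 1 cell of cluster 7 and none of cluster 8. With 1 sample a sort these differences were not tested.

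**Figure D5:**
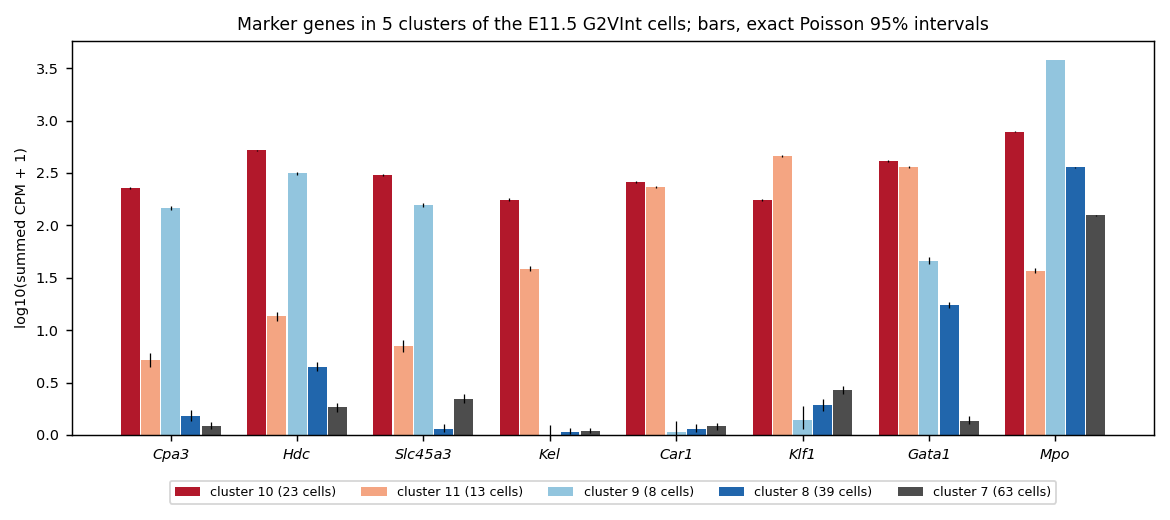
Log10 of summed CPM + 1 of 8 genes in the E11.5 G2VInt cells of clusters 10, 11, 9, 8 and 7; error bars are exact Poisson 95% intervals, counting error only. In this sort Cpa3 and Hdc stand high in clusters 10 and 9 and Kel, Car1 and Klf1 in clusters 10 and 11, while Slc45a3 in cluster 9 was read in 1 of its 8 cells.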

How the data were processed

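The deposited table holds whole-number read counts per Ensembl gene, with 1 column for each of the 1087 cells. The submitters' processing notes name HTSeq 0.6.0 as a tool and GRCm38 as the build, and per the labels' protocols Nextera XT libraries were sequenced on a HiSeq. The aligner, annotation release and strand setting are not given in the sources used here. There were no molecular identifiers, so counts are reads and include copies from amplification. No cell was filtered here, and no 2 columns were identical. All columns were matched to a sample by name.

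Reads were summed over the cells of a cluster in a day and gate and scaled to CPM. A gene was measured at 10 CPM or more in at least 1 of the 2 sets compared, and called past 2-fold. A sum of 0 was given 3 reads in a ratio. Intervals are exact at 95%. Cells were thinned once to 100000 reads (seed 1) to say in which cells a gene was read. The 22 gene lists were fixed by hand, 374 of 375 entries were in the table, and the members and lists were chosen with earlier results of these data known. The text names the 6 markers, the reporter and sorted genes, the 15 highest and 15 lowest ratios against cluster 7 and the 8 highest and 8 lowest within cluster 10, each read in at least 50% of the cells of the higher set and at least 2-fold in the same direction without its top cell. From the lists it names genes of their roles, among them some chosen after their values were seen. Genes without a symbol, Gm and Rik genes, pseudogenes, and mitochondrial, ribosomal and sex-linked marker genes were passed over. Genes with no symbol held 0.0960% of reads.

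Promoters are RefSeq windows on GRCm38.p6. Python 3.11.15, numpy 2.4.6, pandas 2.3.3, scipy 1.17.1 and matplotlib 3.10.9 were used, and edgeR 4.0.16 in R 4.3.3 gave TMM factors for an alternative scaling. No count test was run because each group is 1 sample. The ratio script was tested on simulated data. The alternatives were the mean of per-cell CPM, TMM scaling, minima of 1 and 50 CPM, thinning, cells that both clusterings placed alike, leaving out each gene's top cell, the cells at or below and above the median library number, all HC1 cells in place of cluster 7, and 1 cell left out after seeing the data. Values of some genes are not reported here.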

Additional observations from a re-analysis of the deposited data

Results flagged for a closer look

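The G2 and mitosis genes stood on both sides of 0 between sets. The median log2 ratio of the 24 genes, cluster 10 over cluster 7, was -1.54 at E11 G2VInt, -0.50 at E11.5 G2VInt and 0.95 at E11.5 G2VLo. The difference between sets was not tested, and each set is 1 sample.

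Among the named genes 3 had opposite directions by at least 2-fold in at least 1 pair of sets, also untested. Fancb, a component of the DNA crosslink repair complex, had log2 ratios of -2.42, -1.67 and 1.70 at E11 G2VInt, E11.5 G2VInt and E11.5 G2VLo. Lactb2 had -0.061, -1.14 and 1.37, and Abcd4 had -2.46, 1.34 and -0.79. In the G2VLo cells of cluster 10, 1 of the 7 gave 51.9% of the Fancb reads and 1 gave 51.6% of the Lactb2 reads.

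Hdc was also read outside the cells compared. Of the CD27+ cells at E11.5, 6 had a read of it (5.04%, exact 95% interval 1.87 to 10.7%). The interval covers the 2.52% that 3 cells would make up. Hdc was read in 2.07% of cluster 1, 3.68% of cluster 2, 7.25% of cluster 7, 9.09% of cluster 8, 17.2% of cluster 11 and 27.9% of cluster 9.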

How the results depend on the processing

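Of the recomputed counts of genes past 2-fold, 89 stayed within 1.5 times of the value first obtained and 33 did not. Those that moved are given as the percent of the genes measured under that setting, and the 1.5-fold limit refers to the count. With 1 and 50 CPM in place of 10 CPM as the minimum level, every count moved, to 1.56 to 2.97 times and 0.164 to 0.486 times its value, with 13353 to 15153 and 4621 to 5755 genes measured. Genes at least 2-fold higher in cluster 10 made up 14.2% and 8.71% at E11 G2VInt, 12.9% and 7.23% at E11.5 G2VInt, 14.01% and 8.41% at E11.5 G2VLo and 3.74% and 3.35% in all 3, and those at least 2-fold lower 26.9% and 15.5%, 24.8% and 13.2%, 28.2% and 15.5% and 11.3% and 7.34%. Within cluster 10 they made up 23.3% and 10.5% higher and 13.9% and 4.87% lower in E11.5 G2VInt than in E11.5 G2VLo, and 12.9% and 2.00% higher and 15.4% and 4.62% lower than in E11 G2VInt. Without each gene's top cell in each set, 5.74% were higher in cluster 10 at E11.5 G2VLo, and 4.66% were lower in E11.5 G2VInt than in E11.5 G2VLo, under 0.5 times the counts first obtained. With the cells that both clusterings placed alike, 10.3% were higher in E11.5 than in E11 G2VInt. Among the cells at or below the median library number, 15.4% were lower in G2VInt than in G2VLo, and 10.9% were higher and 15.4% lower at E11.5 than at E11. Among those above it, 28.1% were higher in G2VInt than in G2VLo, and 13.2% were higher and 15.8% lower at E11.5 than at E11. The moved counts of these cell sets were 1.64 to 2.10 times those first obtained. The sets have fewer cells, and the cause beyond that was not tested. Of the genes higher in all 3 sets, 64.6 to 99.7% were also found under the settings other than the minimum level, and of those lower 79.7 to 97.9%.

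Of 3670 recomputed ratios of named genes, 1495 moved beyond the counting interval of the value first obtained, and 18 with at least 2-fold changed sign. On the log2 scale, Epor at E11 G2VInt was -0.14 with the cells placed alike. Among the cells above the median library number Ms4a2 at E11 G2VInt was -0.026, Fos at E11.5 G2VInt -1.24 and at E11.5 G2VLo -1.90. There Alox5 was -0.35, Csf2rb -0.14, Csf2rb2 -0.38 and Cpox -1.27 at E11.5 G2VLo, where 3 of 7 cells remained. For G2VInt over G2VLo, Kel was -0.31 and Smpdl3a 0.21 among those cells, and Smpdl3a was 0.65 without the G2VLo cell highest in endothelial reads, an alternative chosen after seeing the data. For E11.5 over E11 G2VInt, Kel was 0.46 among the cells at or below that median. Flt4 and Aplnr at E11.5 G2VLo were -1.72 and -0.48 without each gene's top cell, -2.53 and -1.29 among the cells above the median library number, -2.86 and -0.81 without the G2VLo cell highest in endothelial reads. The cause was not tested. Of the recomputed list medians, 43.8% moved by 0.25 or more on the log2 scale. None of them changed sign from 2-fold or more. No paired analysis was possible because each day and gate is 1 sample of cells whose numbers pair no cells between groups. The G2VLo set of 7 cells and the E10 set of 2 limit what can be read from them, and reads without molecular identifiers make every interval too narrow.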

Other observations

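A further gene of cluster 10 was on none of the blood lineage lists. It was compared with cluster 7 alone. Pdgfrb, the beta receptor for platelet-derived growth factor and a gene of pericytes and mesenchyme, was read in 25 of the 52 cells and had 54.2, 38.3 and 29.1 CPM in cluster 10, against 0.290, 0.0291 and 1.97 CPM in cluster 7 at E11 G2VInt, E11.5 G2VInt and E11.5 G2VLo. Of these 25 cells, 20 had a read of Kel, which 31 of the 52 had, while Pdgfra, Dcn and Lum, other genes of mesenchyme, had no read in cluster 10. Rag2 was read in 10 of the 52 cells, and 8 of these had Kel, with 28.3, 20.6 and 2.54 CPM in cluster 10. These genes were singled out after their values were seen.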
